A study of Mus musculus with 13 samples.

Results

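The genes described here encode the subunits, activators, inhibitor and assembly chaperones of the proteasome. They were taken by symbol, as every Psma, Psmb, Psmc, Psmd, Psme, Psmf or Psmg gene with a number and without a pseudogene ending. This gave 50 of the 22406 genes in the footprint tables. A mean of at least 2 TPM (the share of footprints of a transcript, corrected for its length) was required in a table. Of the 50, 46 passed in MEFs, among 10432 genes in all, and 46 in NIH3T3 cells, among 10117 genes, with 45 passing in both. The members were sorted by role: 7 core alpha subunits (Psma1 to Psma7), 7 core beta subunits (Psmb1 to Psmb7), 9 subunits of the base (Psmc1 to Psmc6, Psmd1, Psmd2, Psmd4), 8 of the lid (Psmd3, Psmd6, Psmd7, Psmd8, Psmd11 to Psmd14), 5 immunoproteasome or tissue-restricted subunits (Psmb8, Psmb9, Psmb10, Psmb11, Psma8), 5 activators and regulators (Psme1 to Psme4, Psmf1) and 7 assembly chaperones (Psmg1 to Psmg4, Psmd5, Psmd9, Psmd10). The first 4 groups make up the 31 subunits of the 26S proteasome followed here, and all 31 passed in both tables. Psmc3ip (19.8 to 53.3 TPM) and Psme2b (0 counts in every library) carry matching symbols but are no subunits.

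The proteasome is the protease that degrades ubiquitin-tagged proteins, including misfolded proteins that are pulled back out of the endoplasmic reticulum (ER) during ER stress. Alpha and beta subunits form stacked rings of a barrel, with the alpha rings gating entry and the beta rings holding the protease sites. The base unfolds substrates by ATP hydrolysis, the lid removes ubiquitin, and chaperones build the particle from subunits that are needed in equal numbers. Fibroblasts can exchange the catalytic beta subunits for immunoproteasome forms when exposed to interferon.

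The study measured ribosome footprints in mouse embryonic fibroblasts (MEFs) that were WT or PERK −/−, and in NIH3T3 cells, an established mouse fibroblast line. PERK is the ER stress kinase that slows translation through eIF2α. Cells were left untreated or given thapsigargin (Tg), which empties ER calcium and so causes ER stress. MEFs of both genotypes received 1 µM Tg for 1, 2, 5 or 8 h, and NIH3T3 cells 0.2 µM for 2 or 7 h, so that dose and time differ between the lines. Each of the 13 conditions is 1 library. There were no replicates, so no difference has a test, and the intervals given are 95% intervals that cover counting error only. All treated libraries of a line were set against the same untreated library, so that the times of a line are not independent of each other. Footprints measure relative synthesis: they are shares of each library, and a general loss of translation cannot be seen in them. In a bulk library, fewer cells of a kind and fewer footprints per cell cannot be told apart.

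Library totals ran from 2525029 expected counts (WT, 2 h) to 14799515 (PERK −/−, 2 h), and 3 counts were worth between 0.203 and 1.19 CPM (counts scaled to the total of the library). Across the 31 26S subunits the lowest count in any library was 333, and the 95% counting interval of a log2 change extended by a median of 0.07 to 0.13 on either side, depending on the comparison. The fibroblast genes Vim (1549 to 3315 TPM) and Col1a1 (269 to 2207 TPM) were high in every library. Other fibroblast genes were not: Col3a1 and Pdgfrb fell to 0.64 and 2.27 TPM in their lowest libraries. The leukocyte genes Adgre1 and Cd3e were at 0 counts, while Cd68 reached 4.49 TPM. The epithelial genes Krt8 and Krt18 reached 15.6 and 16.0 TPM, and the endothelial gene Kdr 5.14 TPM. Eif2ak3, the gene for PERK, lay at 6.03 to 15.7 TPM in the WT libraries and at 5.21 to 17.2 TPM in those labelled PERK −/−. In CPM it was lower in the library labelled PERK −/− at each matched time (11 against 21.3 untreated, 19.1 against 32.7 at 8 h). Gene totals do not show which exons the footprints fell on, so that they do not check the knockout, and the libraries are named by their labels.

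The alpha and beta subunits differ in the base composition of their coding sequences, which recurs in the results below. The GC content of the coding sequence had a median of 45.1% in the 7 alpha subunits (42.4 to 50.5%) and of 54.6% in the 7 beta subunits (48.6 to 57.8%). To show this, bases 31 to 150 of the coding sequence are given for the alpha subunits Psma3 (chromosome 12, 70974621 to 70996347, + strand) and Psma6 (chromosome 12, 55384222 to 55418454, + strand) and for the beta subunits Psmb5 (chromosome 14, 54614119 to 54618022, − strand) and Psmb3 (chromosome 11, 97703399 to 97713500, + strand), all in exons of GRCm38 as annotated by GENCODE. Capitals mark G or C at the third position of a codon.
Psma3: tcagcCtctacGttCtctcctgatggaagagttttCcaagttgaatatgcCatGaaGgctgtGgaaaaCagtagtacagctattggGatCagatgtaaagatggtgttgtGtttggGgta
Psma6: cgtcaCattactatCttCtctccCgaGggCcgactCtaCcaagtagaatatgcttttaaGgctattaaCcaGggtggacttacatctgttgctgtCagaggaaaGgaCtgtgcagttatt
Psmb5: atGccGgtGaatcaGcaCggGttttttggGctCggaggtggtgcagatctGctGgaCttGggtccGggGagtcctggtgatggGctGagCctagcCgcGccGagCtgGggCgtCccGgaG
Psmb3: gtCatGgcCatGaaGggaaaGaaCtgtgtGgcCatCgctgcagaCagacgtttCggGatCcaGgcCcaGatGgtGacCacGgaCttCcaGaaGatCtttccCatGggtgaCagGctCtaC
Of these 40 codons, 13 ended in G or C in Psma3, 14 in Psma6, 26 in Psmb5 and 32 in Psmb3. These genes had the lowest alpha and the highest beta changes in WT at 8 h, and do not stand for their groups. Over whole coding sequences the groups overlapped, with 36.5 to 57.3% of codons ending in G or C in the alpha subunits and 49.1 to 72.7% in the beta subunits.

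In untreated cells the core subunits had the highest footprint levels of the groups. The median was 351 TPM over the alpha and 359 TPM over the beta subunits in WT MEFs, against 224 TPM over the base and 183 TPM over the lid. In untreated PERK −/− MEFs the medians were 325, 440, 251 and 197 TPM, and in untreated NIH3T3 cells 310, 449, 161 and 172 TPM, in the same order of groups. Within the WT core the values ran from 267 TPM for Psma1 to 813 TPM for Psma3. The core subunits that enter the particle in equal numbers thus did not have equal footprint levels, with an SD of 0.46 on the log2 TPM scale over the 14. The activators and chaperones were lower, from 22.4 TPM (Psmg4) to 137 TPM (Psme3) in the same library.

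Taken as 1 complex, the 31 26S subunits kept nearly the same share of all footprints under Tg. In WT MEFs this share was 0.953% of counts in untreated cells (Wilson interval 0.948 to 0.959%), and 0.996, 0.947, 0.924 and 0.911% after 1, 2, 5 and 8 h. In PERK −/− MEFs it was 0.979% in untreated cells (0.972 to 0.986%) and 1.05, 1.07, 1.06 and 1.05% at the 4 times, so that every treated library lay above its control. In NIH3T3 cells it was 0.838% in untreated cells (0.833 to 0.844%), 0.785% at 2 h and 0.816% at 7 h, both below the control. The medians moved as little: the median log2 change over the 31 was 0.04, −0.09, −0.10 and −0.15 in WT at 1, 2, 5 and 8 h, and 0.10, 0.07, 0.10 and 0.10 in PERK −/−. In NIH3T3 cells the 2 values were −0.18 and −0.10. Over all genes that passed the filter the medians were 0.00, 0.00, 0.00 and 0.01 in WT, −0.06, −0.11, 0.00 and 0.04 in PERK −/−, and −0.13 and 0.00 in NIH3T3. Log2 changes here compare TPM after values under 4 TPM were set to 4.

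Few of the 31 moved by 1.5-fold. In WT MEFs no subunit was 1.5-fold higher or lower at 1 h, where 12.8% of all genes were 1.5-fold higher and 10.2% lower. After 2 h 1 subunit was higher and 1 lower (15.3% and 12.3% of all genes). Later 2 were higher and 2 lower, both at 5 h (16.7% and 11.6%) and 8 h (17.8% and 12%). In PERK −/− MEFs none of the 31 was 1.5-fold higher or lower at any time, against 3.76, 3.57, 10.6 and 12.5% of all genes higher and 13.4, 18.8, 12.8 and 8.22% lower, in order of time. With TMM or DESeq2 factors on the counts 3 were 1.5-fold higher at 2 h, where the median over the 31 was 0.28 or 0.25 in place of 0.07. The median of all genes was then 0.0 with either, in place of −0.11. The share of all genes 1.5-fold higher was not counted under these factors. In NIH3T3 cells none was higher and 1 lower at 2 h (12% and 18.2% of all genes), and 1 was higher and 1 lower at 7 h (16.7% and 20.1%). Between the untreated PERK −/− and WT libraries none of the 31 differed by 1.5-fold (16.1% of all genes higher, 5.32% lower). The spread of the 31 changes was narrow too, with an SD of 0.39 in WT at 8 h against 0.64 over all genes, a set that includes genes with far fewer counts. Within the complex, however, the alpha and the beta medians in WT lay on different sides of the control at every time.

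**Figure D1:**
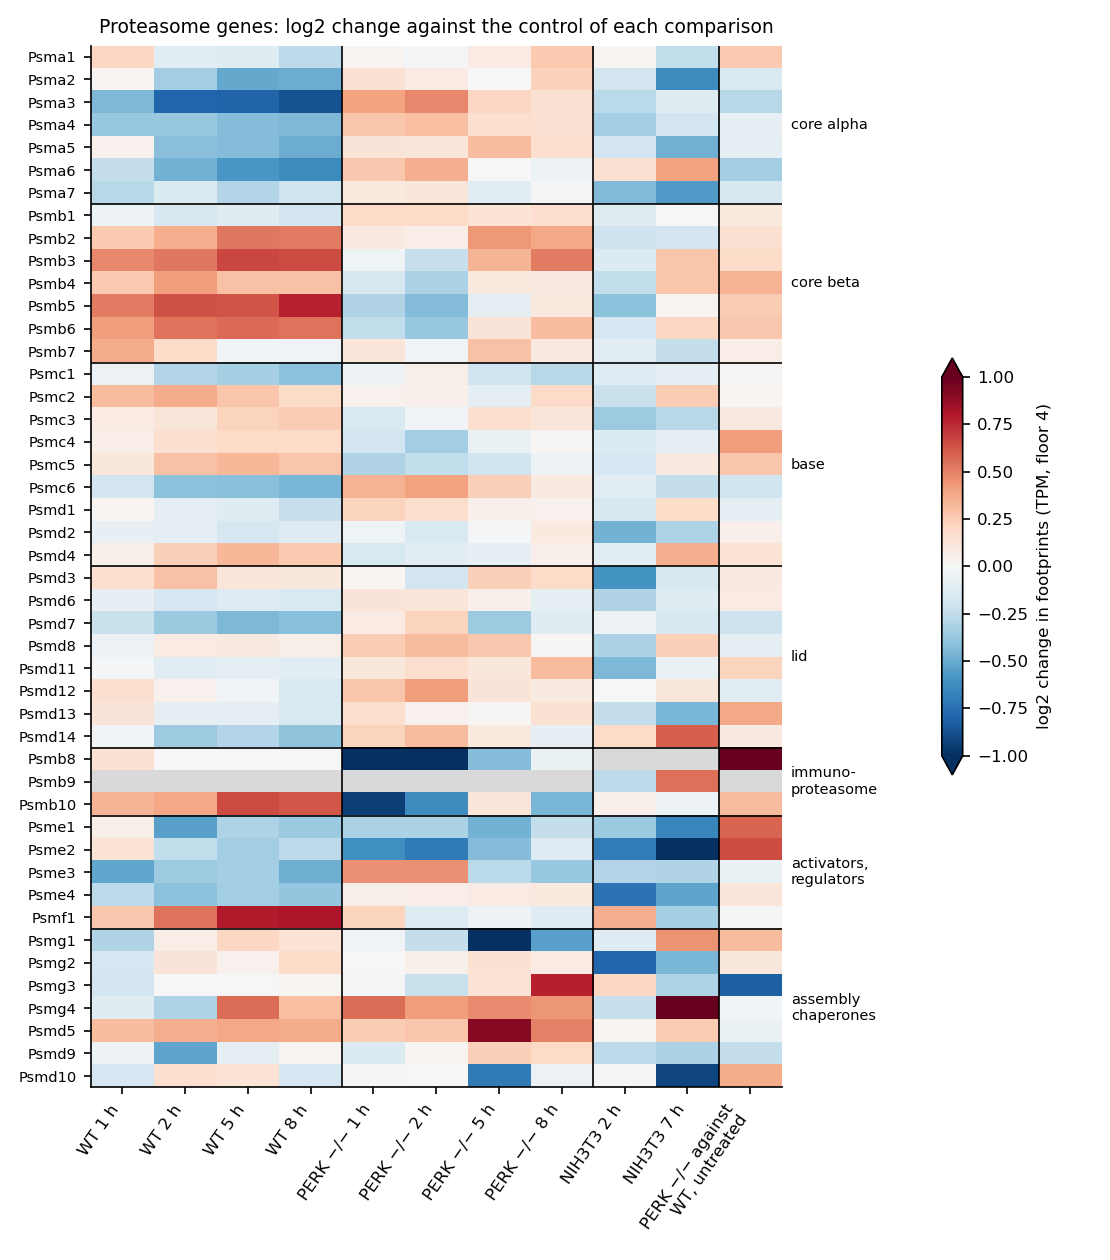
Heat map of the log2 change in footprints (TPM with a floor of 4) of the 46 proteasome genes that have a role and passed the filter in at least 1 table, in rows by role, for 10 Tg comparisons against the untreated library of the same line and for untreated PERK −/− against WT, with 1 library per condition and grey where a gene did not pass the filter in that table. In the WT columns from 2 h on the alpha rows are blue and most beta rows red, with Psma3 at −0.87 and Psmb5 at 0.77 at 8 h. The colour scale ends at −1 and 1, and Psmb8, Psme2, Psmg1 and Psmg4 pass its ends.

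In WT MEFs most alpha subunits were lower and most beta subunits higher after Tg, at every time. The median log2 change of the 7 alpha subunits was −0.24, −0.38, −0.43 and −0.50 after 1, 2, 5 and 8 h, while that of the 7 beta subunits was 0.37, 0.42, 0.53 and 0.52. Of the 7 alpha subunits, 4 lay below their control at 1 h and all 7 from 2 h on. Of the 7 beta subunits, 6 lay above it at 1 and 2 h and 5 at 5 and 8 h, with Psmb1 below it throughout and Psmb7 from 5 h on. The difference between the medians was 0.61, 0.80, 0.96 and 1.03. At 8 h every alpha value lay below every beta value, though the nearest pair, Psma7 (−0.20) and Psmb1 (−0.18), differed by less than their counting intervals. In TPM, the beta to alpha ratio of the medians was 1.02 in untreated WT cells and 1.31, 1.60, 1.93 and 1.99 in the treated ones. The ratio of the summed TPM gave 0.96, 1.35, 1.62, 1.70 and 1.74. Being ratios within a library, these do not depend on how libraries are scaled, but they do depend on the unit. In counts per library total the difference was 0.59, 0.80, 0.79 and 0.86, so that in this unit it did not widen from 2 to 5 h. At 8 h the alpha and beta medians in counts were −0.50 and 0.36, and TMM factors on these counts gave −0.60 and 0.26.

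Psma3, an alpha-ring subunit, stood at 813 TPM in untreated WT cells and at 596, 471, 467 and 444 TPM after 1, 2, 5 and 8 h. It went from the highest core value of its library to the middle of the range, 1.83-fold lower at 8 h (log2 change in counts −0.79, interval −0.85 to −0.72). Psma6 stood at 402 TPM and then at 340, 289, 268 and 259 TPM, a log2 change of −0.64 at 8 h. Psma2 differed in time, being level at 1 h (514 and 521 TPM) and lower later (404, 361 and 363 TPM). Psma1 was the 1 alpha subunit above its control at 1 h by more than its counting interval, at 310 against 267 TPM (log2 change in counts 0.23, 0.11 to 0.34), and was below it at 8 h (223 TPM).

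Psmb5, which carries the chymotrypsin-like site that drugs such as bortezomib block, stood at 297 TPM in untreated WT cells and at 423, 464, 461 and 506 TPM after Tg. It was 1.70-fold higher at 8 h, with a log2 change in counts of 0.77 (0.70 to 0.84). Psmb6, the caspase-like subunit, stood at 386 TPM and then at 518, 560, 575 and 560 TPM. Psmb7, the trypsin-like subunit, did otherwise: from 629 TPM it was higher at 1 h (812 TPM) and 2 h (714 TPM) and back at 616 and 612 TPM at 5 and 8 h. Psmb3, a non-catalytic subunit, stood at 318 TPM and then at 445, 460, 507 and 499 TPM, so that the higher values were not restricted to the catalytic subunits. Psmb2 and Psmb4 lay between, with log2 changes of 0.26 to 0.53 and 0.26 to 0.42 in TPM. Psmb2 changed less in counts, from 201 CPM to 237, 240, 258 and 258 CPM, against 359 TPM and then 429, 460, 518 and 517 TPM. Psmb1, also non-catalytic, had the lowest beta change at all 4 times, from −0.05 to −0.18.

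**Figure D2:**
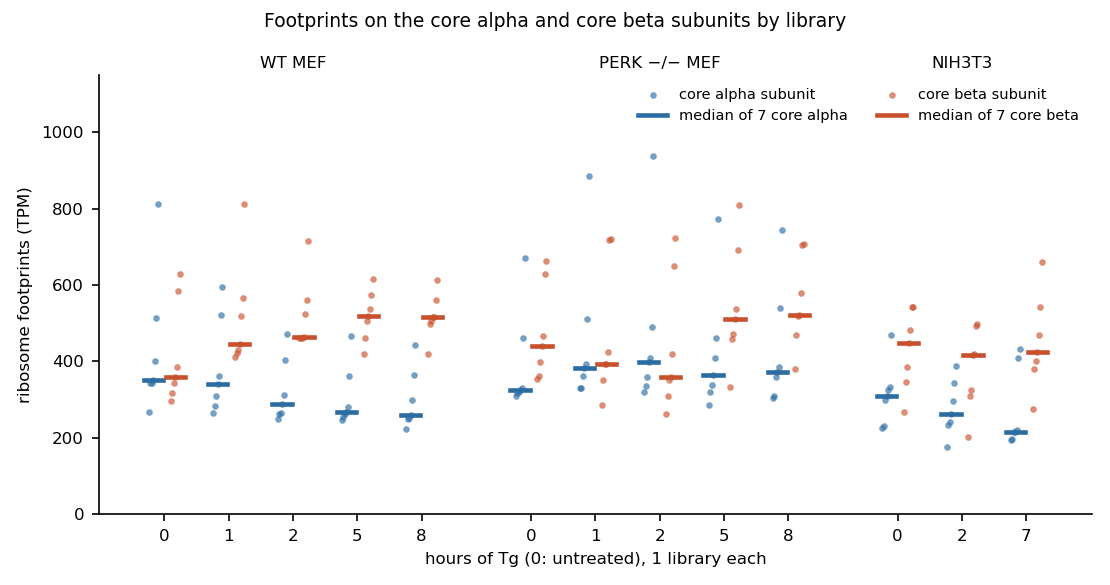
Ribosome footprints in TPM on each of the 7 core alpha (blue) and 7 core beta (red) subunits in the 13 libraries, grouped by line and ordered by hours of Tg, with a bar at the median of each group. In WT the bars start together at 351 and 359 TPM and stand at 259 and 515 TPM at 8 h, while in PERK −/− they cross at 2 h (399 and 358 TPM).

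In PERK −/− MEFs the direction was the opposite early on. All 7 alpha subunits lay above their control at 1 h, with a median log2 change of 0.15, and 6 of 7 at 2 h (0.12), while the beta medians were −0.04 and −0.23 (0.10 and −0.01 with TMM factors). The beta minus alpha difference was thus −0.18 and −0.35 at the early times, and near 0 at the later ones (0.06 and 0.02). The ratio of the median TPM was 1.35 in untreated PERK −/− cells and 1.03, 0.90, 1.41 and 1.40 in the treated ones. Psma3 stood at 671 TPM untreated and at 886, 938, 774 and 743 TPM after Tg, above its control in all 4 libraries where the WT values were below theirs. Psmb5 stood at 354 TPM untreated, then at 287, 262, 333 and 380 TPM, so that at 2 h it was 1.35-fold lower. At 8 h all 7 beta subunits were above their control (median 0.17), led by Psmb3 at 520 against 362 TPM, but with TMM factors 5 of 7 were (0.07).

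The untreated libraries already differed in the same 2 groups. Untreated PERK −/− cells had 6 of 7 alpha subunits lower than untreated WT cells (median −0.15) and all 7 beta subunits higher (0.18), a difference of 0.34. The median of all genes was 0.08 in this comparison. With TMM factors the alpha and beta medians were −0.31 and 0.02, and only 4 of 7 beta subunits were higher, with Psmb1, Psmb2 and Psmb7 on the other side. The WT changes are all measured from the untreated WT library, the one with the lowest beta to alpha ratio of its line. They share whatever is particular to it. The PERK −/− changes are likewise all measured from the untreated PERK −/− library that is set against WT here. The difference of 0.34 and the opposite early direction in PERK −/− are thus not independent. Between the treated WT libraries themselves the 31 subunits differed less and less: the SD of the log2 differences between neighbouring times was 0.19, 0.09 and 0.06, against 0.46, 0.35 and 0.19 over all genes. These libraries held 3609292, 2525029, 5617552 and 11178364 counts in order of time, so that counting error was also smaller at the later steps. Its part in these SDs was not tested. In PERK −/− the SD was 0.10, 0.28 and 0.15 (0.30, 0.61 and 0.54 over all genes), with the widest step from 2 to 5 h, where the early direction ended.

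In NIH3T3 cells the ratio of the median TPM was 1.45 untreated, 1.58 at 2 h and 1.97 at 7 h. The ratio of the summed TPM was 1.38, 1.37 and 1.67, which was not higher at 2 h. At 2 h the alpha and beta medians were alike (−0.19 and −0.17), and all 7 beta and all 9 base subunits lay below the control. The median of all genes was −0.13 there. In counts per library total that median was −0.04, the alpha, beta and base medians were −0.07, −0.05 and −0.04, and 6 of 7 beta and 7 of 9 base subunits lay below the control. With DESeq2 size factors it was 4 of 7 and 4 of 9. At 7 h they were −0.25 and 0.03, a difference of 0.28, but the alpha subunits were spread from −0.63 (Psma2) to 0.40 (Psma6). Psma6 stood at 310, 344 and 410 TPM in NIH3T3 cells, against 402 and 259 TPM in untreated WT MEFs and at 8 h, so that the subunit with the next lowest WT change after Psma3 was the highest alpha change here. Psma2 stood at 334, 295 and 216 TPM.

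In WT, in PERK −/− at 1 and 2 h and between the untreated libraries, the changes of the 26S subunits moved with their coding GC content. Those of all genes did so less strongly. Over the 31 subunits Spearman's rho between log2 change and GC content was 0.53, 0.79, 0.76 and 0.82 in WT at 1, 2, 5 and 8 h. It was −0.76, −0.78, −0.11 and 0.19 in PERK −/−, −0.41 and 0.14 in NIH3T3 at 2 and 7 h, and 0.57 for untreated PERK −/− against WT. Over the 10257 MEF genes with a coding sequence rho was 0.24, 0.36, 0.41 and 0.46 in WT and −0.37, −0.47, −0.08 and −0.02 in PERK −/−. It was 0.18 for untreated PERK −/− against WT, and −0.10 and −0.06 over 9906 genes in NIH3T3. The points of a comparison share 2 libraries and are not independent. When the trend over all genes was removed, the beta minus alpha difference in WT was 0.41, 0.59, 0.64 and 0.62 at the 4 times, in place of 0.61, 0.80, 0.96 and 1.03. In PERK −/− it was −0.03 and −0.20 at 1 and 2 h, in place of −0.18 and −0.35. At equal trend, Psmb5 was then at 0.46 and Psma3 at −0.51 in WT at 8 h. What part GC content has in these values was not tested.

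**Figure D3:**
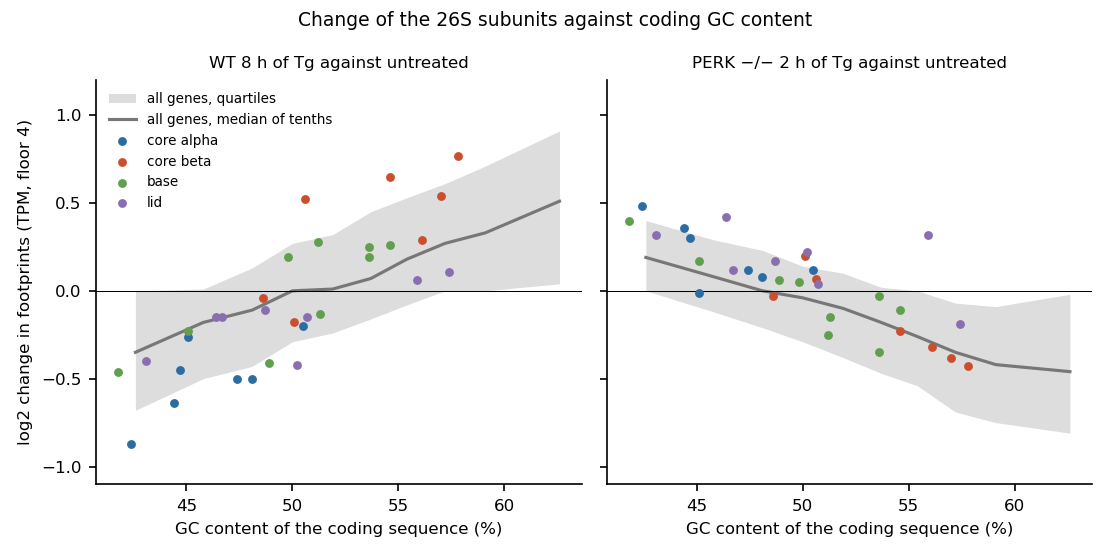
Log2 change in footprints (TPM with a floor of 4) of each 26S subunit against the GC content of its coding sequence in percent, coloured by role, in WT at 8 h and PERK −/− at 2 h of Tg. The grey line and band are the median and quartiles of all genes in 10 equal bins of GC content. The line goes from −0.35 to 0.51 in WT and from 0.19 to −0.46 in PERK −/−, and in WT most alpha points lie below it and most beta points above it.

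In WT the base and lid medians stayed between the alpha and beta medians at every time. This did not hold throughout in the other lines. At 2 h the lid median lay above both in PERK −/− (0.19) and below both in NIH3T3 (−0.27). In WT at 8 h the base median was 0.19 and the lid median −0.15 (0.09 and −0.24 with TMM factors), and no base or lid subunit reached 1.5-fold in TPM. Psmc6, an ATPase of the base, stood at 288 TPM untreated and at 251, 217, 216 and 210 TPM in WT, and at 251, then 321, 332, 297 and 267 TPM in PERK −/−, lower in one line and higher in the other at all times, though at 8 h in PERK −/− its log2 change was 0.09 in TPM and −0.01 with TMM factors. Psmc5, another of the ATPases, did the reverse, with 224 TPM and then 242, 274, 281 and 272 TPM in WT, and 271 TPM and then 221, 229, 237 and 262 TPM in PERK −/−. Ring partners of one ATPase hexamer thus lay on opposite sides of their controls in the same library. The other 4 ATPases ran from −0.41 (Psmc1) to 0.25 (Psmc3) in WT at 8 h.

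The scaffolds of the base moved little in WT cells. Psmd1, a scaffold, ranged from 152 to 181 TPM over the 5 WT libraries, and Psmd2, the other scaffold, from 279 to 314 TPM. Psmd4, a ubiquitin receptor, stood at 222 TPM and then at 230, 263, 279 and 266 TPM in WT. Of the lid, Psmd14, the deubiquitinase that cuts the ubiquitin chain off a bound substrate, stood at 292 TPM and then at 287, 228, 239 and 222 TPM in WT. In NIH3T3 cells it was the 1 subunit above 1.5-fold at 7 h, at 124, 141 and 187 TPM (log2 change in counts 0.60, 0.48 to 0.71). Psmd3, a lid subunit, was the 1 below it at 2 h, at 158 and 104 TPM, and the value in counts, −0.48, was smaller. Psmd7, a lid subunit, was the lowest of the lid at all WT times, from −0.22 at 1 h to −0.45 at 5 h, with Psmd14 within its counting interval at 2 and 8 h. In PERK −/− all 8 lid subunits lay above their control at 1 h (0.02 to 0.28) and 7 of 8 at 2 and 5 h.

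Immunoproteasome subunits were scarce, and their differences rest on few counts. Psmb8 (chromosome 17, 34197721 to 34201454), the interferon-induced counterpart of Psmb5, was the 1 member at least 2-fold higher in untreated PERK −/− than in untreated WT cells, where 6.04% of all genes were. It stood at 12.2 TPM (66 counts) against 2.61 TPM (25 counts), 3.06-fold higher after the floor, with a log2 change in counts of 2.23 (1.54 to 2.95). In PERK −/− cells it then stood at 3.66, 4.48, 9.10 and 11.6 TPM after 1, 2, 5 and 8 h. It was therefore the 1 member at least 2-fold lower at 1 h (3.38% of all genes) and at 2 h (5.78%), and close to its control at 8 h. In WT it stayed between 2.45 and 4.44 TPM, on 5 to 25 counts. In NIH3T3 cells it had 0 counts in all 3 libraries, which allows up to 0.270, 1.17 and 0.521 CPM.

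Psmb10, the counterpart of Psmb7, was also lower early in PERK −/− cells, with 19 TPM untreated and 9.91, 12.3, 20.7 and 13.8 TPM after Tg. In WT it stood at 15.2 TPM and then at 19.1, 19.9, 23.8 and 23.2 TPM. Psmb9, the counterpart of Psmb6, was the reverse of Psmb8 between the lines: at most 1.37 TPM and 7 counts in any MEF library, but 7.25, 6.06 and 10.6 TPM in NIH3T3 cells. Thymus-restricted Psmb11 had 0 counts in all 13 libraries, and Psma8, a testis form of an alpha subunit, had at most 3.

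The PA28 activators, too, were higher in untreated PERK −/− cells. Psme1 and Psme2, which form the PA28 cap that interferon induces, stood at 186 and 167 TPM in untreated PERK −/− cells against 124 and 107 TPM in WT, log2 changes in counts of 0.58 (0.45 to 0.71) and 0.64 (0.50 to 0.79). After Tg, Psme2 was lower in PERK −/− cells at 1 h (109 TPM) and 2 h (102 TPM) and nearer its control later (124 and 152 TPM). Psme1 stood at 149, 149, 134 and 157 TPM in the same libraries. In WT both had counting intervals that held 0 at 1 h (130 and 117 TPM) and lower values from 2 h on, at 85.5 to 100 TPM for Psme1 and 83.6 to 89.5 TPM for Psme2.

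Among the activators the lowest change was that of Psme2 in NIH3T3 cells. Psme2 (chromosome 14, 55587441 to 55591113) stood at 103 TPM untreated, 63.2 TPM at 2 h and 34.7 TPM at 7 h, on 833, 130 and 143 counts. It was 2.96-fold lower at 7 h, the 1 member at least 2-fold lower there (8.06% of all genes), with a log2 change in counts of −1.59 (−1.86 to −1.33). Its partner Psme1 went the same way by less, from 107 to 82.8 and 68.0 TPM.

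Genes that respond to interferon were higher in untreated PERK −/− cells and lower after 1 and 2 h of Tg in these cells, as were Psmb8 and Psme2. Both comparisons use the same untreated PERK −/− library, on opposite sides, so that they are not independent and share whatever is particular to it. A list of 12 such genes had 11 past the MEF filter, and 8 of them were 1.5-fold higher in untreated PERK −/− than in WT cells (16.1% of all genes), with a median log2 change of 0.98. Isg15 stood at 171 against 10.9 TPM and H2-K1, a class I histocompatibility gene, at 146 against 68.5 TPM. In PERK −/− cells under Tg the median of the list was −1.08 at 1 h and −0.98 at 2 h, then −0.30 and 0.01, low at the same early times as Psmb8. With the GC trend over all genes removed it was −0.78, −0.57, −0.23 and −0.04, and 0.76 between the untreated libraries. In WT the medians went the other way from Psme1 and Psme2, at 0.26, 0.07, 0.14 and 0.17, with Isg15 at 10.9 TPM untreated and 40.6 TPM at 8 h. With the GC trend removed these WT medians were 0.06, −0.06, 0.26 and 0.13. In NIH3T3 cells the 2 medians were −0.51 and −0.39, while the log2 change of Psmb9 was 0.55 at 7 h, on 52 and 36 counts. The part of interferon signalling in the Psmb8, Psmb10, Psme1 and Psme2 values was not tested.

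Each of the other caps and the inhibitor had a pattern of its own. Psme3, the nuclear PA28 gamma, stood at 137 TPM and then at 95.6, 107, 108 and 97.7 TPM in WT. In PERK −/− it was higher at 1 and 2 h (179 and 178 against 130 TPM) and lower at 5 and 8 h (108 and 99.8 TPM). Psme4, the PA200 cap, was lower at all 4 times in WT, with 28.9 TPM and then 21.8 to 24.2 TPM, and level in PERK −/−, with 31.5 TPM and then 32.8 to 33.8 TPM. In NIH3T3 cells it stood at 18.9, 11.3 and 13.1 TPM. Psmf1, the PI31 inhibitor, was the highest member change in TPM in WT at 5 and 8 h. It stood at 39.0 TPM and then at 47.0, 56.9, 67.3 and 68.3 TPM. Its log2 change was 0.81 in TPM at 8 h but 0.47 in counts (0.27 to 0.67), and 0.79 and 0.44 at 5 h. In counts it was thus below Psmb3 at 5 h (0.67) and Psmb5 at 8 h (0.77). At 1 h its direction also depended on the unit, at 0.27 in TPM and −0.18 in counts.

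**Figure D4:**
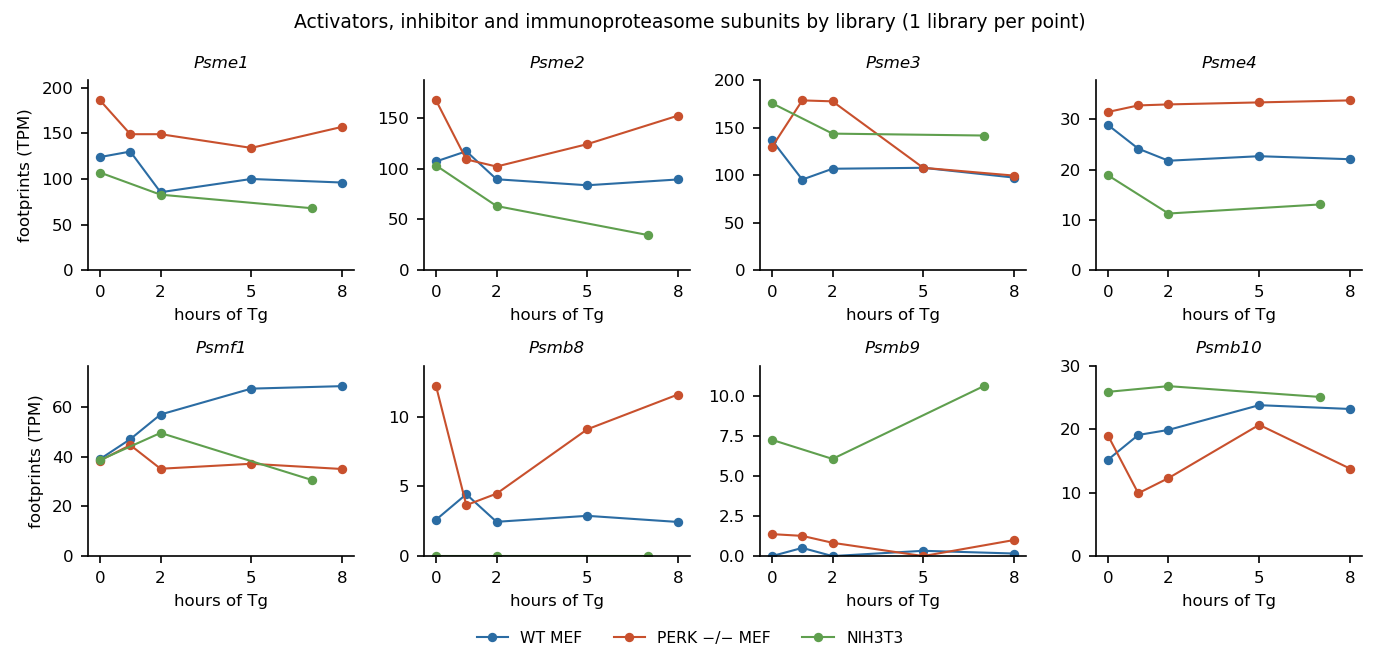
Ribosome footprints in TPM on the activators Psme1 to Psme4, the inhibitor Psmf1 and the immunoproteasome subunits Psmb8, Psmb9 and Psmb10 against hours of Tg, 1 library per point, for WT MEFs (blue), PERK −/− MEFs (red) and NIH3T3 cells (green), each panel with its own axis from 0. Psmb8 in PERK −/− stands at 12.2 TPM untreated, at 3.66 TPM at 1 h and at 11.6 TPM at 8 h, and Psme2 in NIH3T3 goes from 103 to 34.7 TPM.

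Of the assembly chaperones, Psmd5 was above its control in all 10 Tg libraries. This chaperone of the base stood at 77.6 TPM and then at 96.2, 99.7, 102 and 100 TPM in WT, at 73.8 TPM and then at 87.8, 89.7, 138 and 105 TPM in PERK −/−, and at 93.0, 95.0 and 111 TPM in NIH3T3. At 2 h in NIH3T3 cells the log2 change was 0.03 in TPM and 0.15 in counts (0.00 to 0.30), which reaches 0. At 5 h in PERK −/− it was 1.88-fold higher. Psmd9 and Psmd10, the other base chaperones, had no shared direction: Psmd10 was lower at 5 h in PERK −/− (34.5 against 56.6 TPM) and at 7 h in NIH3T3 (38.7 against 73.1 TPM). Psmd9 was lower at 2 h in WT, at 45.3 against 65.2 TPM on 72 counts. For Psmd10 in WT the sign depended on the unit, at 0.17 in TPM and −0.07 in counts at 2 h, and 0.14 and −0.17 at 5 h.

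Psmg1 and Psmg2, which work as a pair to start the alpha ring, did not move as a pair. Psmg1 (chromosome 16, 95979933 to 95990960) was the 1 member at least 2-fold lower in PERK −/− at 5 h (4.77% of all genes), at 33.3 against 74.0 TPM and 231 against 420 counts, a log2 change in counts of −1.12 (−1.36 to −0.88). It stood at 50.8 TPM at 8 h, while Psmg2 stood at 52.6 TPM untreated and at 52.7, 54.3, 58.5 and 55.5 TPM. In WT Psmg1 stayed between 48.4 and 68.8 TPM. In NIH3T3 cells at 7 h the order was reversed again, with Psmg1 at 88.9 against 64.9 TPM and Psmg2 at 66.4 against 91.4 TPM.

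Psmg3 and Psmg4, the other pair of alpha-ring chaperones, were on fewer counts. Psmg3 was lower in untreated PERK −/− than in WT cells (33.9 against 60.0 TPM, on 69 and 217 counts) and reached 58.2 TPM at 8 h of Tg. Psmg4 was the 1 member at least 2-fold higher in NIH3T3 cells at 7 h (7.01% of all genes), at 172 against 83.2 TPM. In counts its log2 change was 0.73 (0.47 to 1.00) and not 1.05, which is under 2-fold.

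**Figure D5:**
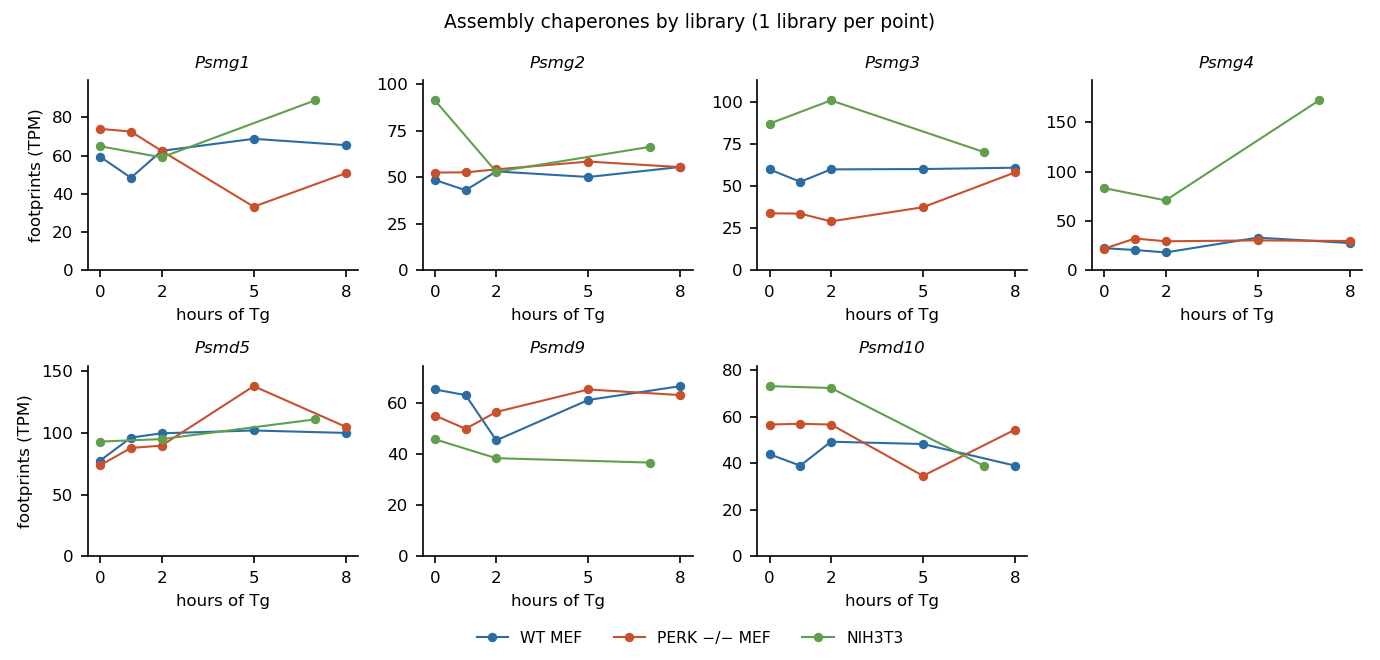
Ribosome footprints in TPM on the 7 assembly chaperones against hours of Tg, 1 library per point, for WT MEFs (blue), PERK −/− MEFs (red) and NIH3T3 cells (green), each panel with its own axis from 0. Psmg1 stands at 33.3 TPM at 5 h in PERK −/−, the library where Psmd5 stands at 138 TPM, and Psmg4 stands at 172 TPM at 7 h in NIH3T3.

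Partner genes outside the symbol rule were read from lists of proteasome partners, regulators of proteasome expression and ubiquitin genes. Pomp, the maturation factor that the beta ring is built on, was lower in WT at all times, at 311 TPM and then 231, 180, 168 and 194 TPM, against 280 TPM and then 319, 269, 229 and 276 TPM in PERK −/−. In WT it thus moved with the alpha subunits and not with the beta subunits it helps to assemble. Of the 15 partners past the filter, 1 was 1.5-fold higher and 5 were lower in WT at 8 h (17.8% and 12% of all genes), and 1 and 1 in PERK −/− at 8 h (12.5% and 8.22%). Adrm1, a ubiquitin receptor of the base, was higher in WT (110 TPM and then 122, 192, 151 and 154 TPM), and Shfm1, the smallest lid subunit, was lower (1518 TPM and then 1166, 995, 931 and 894 TPM).

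Nfe2l1 encodes the transcription factor NRF1, an ER-anchored protein that raises proteasome genes when proteasome activity is short. Its footprints stood at 67.2 TPM in WT and then at 59.0, 77.5, 104 and 105 TPM, and at 81.5 TPM and then 57.6, 56.3, 91.7 and 85.5 TPM in PERK −/−. Ubb, a polyubiquitin gene, stood at 844 TPM and then at 1102, 1296, 1475 and 1567 TPM in WT.

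The antioxidant response element that NRF1 can bind was searched for in promoters because Psmb5 and Psmb6 moved together. The letters TGACNNNGC, on either strand, were found in 6 of the 42 members with a RefSeq promoter window (14.3%): Psmb5, Psmb6, Psmc6, Psmd9, Psmd12 and Psme4. Among all 32851 windows of 300 bases 12.4% held them, counted by window, while members were counted by gene. The sequences below show only part of such a window. The 100 bases before the RefSeq gene start are shown for both beta subunits (GRCm38.p6, 5′ to 3′ on the gene's strand), with the match in capitals.
Psmb5, chr14:54617996-54618095, − strand: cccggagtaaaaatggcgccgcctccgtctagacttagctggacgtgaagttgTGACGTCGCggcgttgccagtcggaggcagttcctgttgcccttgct
Psmb6, chr11:70525257-70525356, + strand: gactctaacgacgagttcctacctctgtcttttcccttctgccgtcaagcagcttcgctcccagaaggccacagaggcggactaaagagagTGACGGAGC
The match starts 47 bases before the gene start in Psmb5 and 9 bases before it in Psmb6. Of the other 4 members with a match, Psmc6 and Psme4 were lower in WT at 8 h (−0.46 and −0.39), and Psmd9 and Psmd12 stood at 0.03 and −0.15.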

How the data were processed

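Ribosome footprints were sequenced from 13 cultures without cycloheximide, 1 library per condition. Per the labels and the methods of the study, reads of 22 to 34 nt that did not match rRNA were quantified by the authors with STAR, Bowtie2 and RSEM on mm10 coding sequences clipped by 30 nt at each end. Versions are not given in the sources used here. The deposited tables hold TPM and expected counts per gene symbol, normalized per library by the authors only in the TPM. TPM are shares, and RSEM can split reads between isoforms and near-identical genes, which is why both units are given for some genes where they differ. Values without a stated unit are in TPM.

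From these, genes with a mean of at least 2 TPM in a table were kept, TPM under 4 were set to 4, and log2 changes were taken against the untreated library of the same line, after the rules of the study. Expected counts were rounded to whole numbers for intervals: an exact conditional (Clopper-Pearson) interval for a ratio of counts and a Wilson interval for a share, both at 95%. With 1 library per condition no test across genes was run. The median and 1.5-fold counts of a list stand beside those of all genes. The members, roles and lists were chosen with earlier results of these data known. Named genes are the catalytic and immunoproteasome beta subunits, Psmd1, Psmd2, Psmd4 and Psmd14, all activators, regulators and chaperones, the 3 highest and 3 lowest members per comparison with at least 100 counts in both libraries, and any member at 2-fold. Psma1, Psma7, Psmb1, Psmb2, Psmb4, Psmc3 and Psmd7, as well as the genes of the partner lists, were chosen after their values were seen. GC content came from GENCODE M21 coding sequences (GRCm38, the same assembly as mm10), found for 98.3% of MEF and 97.9% of NIH3T3 genes past the filter. Its trend was removed by lowess (fraction 0.3), chosen after seeing the data. Alternatives were TMM factors (edgeR 4.0.16), DESeq2 1.42.0 size factors, counts per library total, other floors and filters, and counts thinned to the smallest library. Scripts were tested on simulated data (Python 3.11.15, scipy 1.17.1, statsmodels 0.14.6).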

Additional observations from a re-analysis of the deposited data

Results flagged for a closer look

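For 7 proteasome genes every treated WT library lay on one side of its control and every treated PERK −/− library on the other. The difference was not tested, and the 4 libraries of a line share 1 control. These are values in TPM: in counts per library total 6 of the 7 had the pattern, without Psmd11, and with TMM factors 6 of the 7, without Psmc6. Scaling also added members, so that 9 had it with TMM factors and 10, among them all 7, with DESeq2 size factors. The share of all genes with the pattern was counted in TPM only. The counting intervals of Psmb1 at 1 h in WT (−0.12 to 0.05) and of Psmc5 at 8 h in PERK −/− (−0.14 to 0.03) held 0. In TPM the share of members with this pattern was 15.2%, against 7.98% of all genes past the filter (832 genes). That set includes genes with far fewer counts, and a gene held at the floor cannot have the pattern. Psma3 had a mean log2 change of −0.73 over the 4 WT times and 0.31 over the 4 PERK −/− times, and Psma4 of −0.41 and 0.22, both alpha-ring subunits. Psmb1, a beta subunit, had −0.13 and 0.18. Of the ATPases of the base, Psmc6 had −0.37 and 0.27, while Psmc5 had 0.25 and −0.20, the 1 member higher in WT and lower in PERK −/−. Psmd11 of the lid had −0.08 and 0.18, and the PA200 activator Psme4 −0.35 and 0.08.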

How the results depend on the processing

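No paired analysis was possible because each condition is 1 library, and no library could be left out for the same reason. Over the 9 alternatives the beta minus alpha difference in WT ran from 0.41 to 0.61 at 1 h and from 0.62 to 1.03 at 8 h. It was smallest with the GC trend removed (0.64 at 5 h, 0.62 at 8 h). Scaling factors cancel in this difference, and floors and filters hardly reach genes at these levels. Its sign could thus change only with the unit, thinned counts or the GC trend, and it was positive with each. Of the values that answer a comparison, 352 stayed within their interval or within 1.5 times the count. These include values that floors, filters or scaling could not move. The other 44 did not stay within it. The cause was not tested. With TMM factors the 26S median was 0.22, 0.28 and 0.00 in PERK −/− at 1, 2 and 8 h and −0.05 in NIH3T3 at 2 h. With DESeq2 size factors these were 0.20, 0.25, 0.01 and −0.02. With either, the subunits 1.5-fold higher in WT numbered 0, 0 and 1 at 2, 5 and 8 h, those lower at 8 h 4, those higher in PERK −/− at 2 h 3, and those lower in NIH3T3 0 at 2 and 7 h. The shares of all genes 1.5-fold higher or lower were not counted under any alternative. With counts per library total, 1 was lower in WT at 5 h and 0 in NIH3T3 at 2 h, with a median of −0.06 there. With log2(TPM + 1), 1 was lower in WT at 5 h. With thinned counts, 2 were higher in WT at 2 h, 1 lower at 5 h, 1 higher in PERK −/− at 5 h and 0 lower in NIH3T3 at 2 h, with medians of 0.21 in PERK −/− at 2 h and −0.05 in NIH3T3 at 2 h. With the GC trend removed, 0 were 1.5-fold higher or lower in WT at 2, 5 and 8 h, 1 was higher in PERK −/− at 2 h and 0 lower in NIH3T3 at 2 h, and the medians were 0.04 in PERK −/− at 8 h and −0.05 in NIH3T3 at 2 h. In NIH3T3 at 2 h the base median (−0.16) was 0.00 with DESeq2 size factors and the core beta median (−0.17) was 0.02 with the GC trend removed. Of single members and groups, 776 values moved and 4370 did not. Members under 100 counts, such as Psmb8, are limited by depth.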
